A study of Mus musculus with 30 samples.

Results

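The genes described here are those of the 4 Hox clusters of the mouse. They were chosen as every gene whose symbol is Hoxa, Hoxb, Hoxc or Hoxd followed by a number from 1 to 13, with no antisense or opposite-strand transcript, which gave 39 genes. A probe set, the group of probes that reads 1 transcript, was named for that gene alone for 33 of the 39, among 18193 genes with such a probe set. Of these, 31 passed the filter on dim probe sets and were tested together with all other genes, 15136 in all. Where a gene had several probe sets, the brightest was used. The levels were measured in limb bud mesenchyme, the loose embryonic tissue that forms the skeleton and connective tissue of the limb, from distal hindlimb, distal forelimb and proximal forelimb.

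Hox genes encode homeodomain transcription factors. Each lies in 1 of 4 clusters, A to D, and the number in its name, the paralogue number, gives its place in the cluster, with low numbers at the end expressed earliest and most anteriorly in the body and high numbers at the end expressed later and more posteriorly. In the limb bud, HoxA and HoxD genes of high number are known to pattern the segments from shoulder to digit, with Hoxa13 and Hoxd13 at the tip, while HoxC genes of high number are known for expression in the hindlimb and its flanking body wall. Hox proteins bind DNA together with cofactors of the TALE class, the Meis, Pbx and Pknox proteins, and Meis1 and Meis2 are known as proximal markers in the limb.

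The donors were embryos of the outbred mouse strain CD-1 at E10.5, and the dissociated cells were grown as dense cultures. The labels call cells of the distal hindlimb early, cells of the distal forelimb intermediate and cells of the proximal forelimb late. Control groups cover days 0, 1 and 2, and treated groups cover days 1 and 2 with BMP4, a bone morphogenetic protein, present at 20 ng/ml from time 0. That makes 15 groups of 2 arrays, 30 in all, and the cells were pooled from about 280 embryos. All groups share the strain and the stage, and the labels name no genetic change in any group. The protocol text also names cultures of a later stage, and no array carries that stage in its labels. The labels call the arrays of a group biological replicates without saying how they were separated, so p-values measure the spread between these arrays.

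Levels are given as log2(signal + 16), where signal is the deposited array intensity and 4 is the lowest value possible. This scale understates differences of dim genes. A difference is a difference of these log2 levels with its standard error, and a call means an adjusted p under 0.05 from limma, a linear model fitted to all genes at once, with Benjamini-Hochberg adjustment over all 15136 genes. Levels are compared between arrays for the same gene, never between genes, because probe sets differ in brightness. Median signals ran from 33.9 to 46.4 per array. Across genes, which are not independent of each other, the arrays of a group correlated with r from 0.970 to 0.984. Precision is limited by having 2 arrays in each group.

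The table of RefSeq promoters held 24 promoters for 22 of the 39 genes. The 3 stretches of 250 bases upstream of a start site are shown because their genes carried the population differences described next. Hoxd13 was higher in distal forelimb than in both other populations. Hoxd10, of the same cluster, was higher there by less, and Hoxc4 ran the opposite way. They are from build GRCm38.p6, all on the plus strand, at chr2:74667975-74668224, chr2:74691641-74691890 and chr15:103034145-103034394. Capitals mark matches on either strand to 7 motifs. They are the TATA box, searched as TATAAA, and the CCAAT box of core promoters, then the GC box, searched as GGGCGG. The homeodomain core was searched as TAATTA, the site of a Pbx and Hox pair as TGATNNAT, the site of Hox proteins of high number as CAATAAA, and a site described for BMP SMAD proteins as GGCGCC.
Hoxd13: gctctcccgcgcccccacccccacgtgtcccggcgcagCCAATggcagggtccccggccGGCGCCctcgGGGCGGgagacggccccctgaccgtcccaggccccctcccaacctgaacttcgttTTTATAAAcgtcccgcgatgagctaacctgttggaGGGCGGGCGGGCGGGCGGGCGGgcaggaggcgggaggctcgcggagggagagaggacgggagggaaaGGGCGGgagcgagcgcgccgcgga
Hoxd10: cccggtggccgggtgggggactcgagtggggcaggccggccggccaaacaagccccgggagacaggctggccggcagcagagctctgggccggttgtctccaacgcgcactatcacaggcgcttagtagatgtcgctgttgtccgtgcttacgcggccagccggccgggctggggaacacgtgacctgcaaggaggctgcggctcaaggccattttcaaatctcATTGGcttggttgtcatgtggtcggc
Hoxc4: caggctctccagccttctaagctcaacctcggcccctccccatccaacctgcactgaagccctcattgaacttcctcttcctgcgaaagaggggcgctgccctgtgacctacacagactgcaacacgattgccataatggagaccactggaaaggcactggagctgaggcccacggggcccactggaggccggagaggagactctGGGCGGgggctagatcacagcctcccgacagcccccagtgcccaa
The Hoxd13 stretch held 31 CpG and was 74.4% G or C. It held overlapping TATA boxes on both strands, 1 CCAAT box, 7 GC boxes, of which 5 overlap, and 1 BMP SMAD site. The Hoxd10 stretch held 20 CpG, was 65.6% G or C and had 1 CCAAT box, on the minus strand. The Hoxc4 stretch held 8 CpG, was 62.0% G or C and had 1 GC box. The median was 12.5 CpG over the 24 Hox promoters and 6 over all 32851 promoters of the table. The CCAAT box was found in 14 of 24 Hox promoters and in 33.8% of all promoters, the GC box in 10 and 32.7%, the TATA box in 4 and 12.4%, and the BMP SMAD site in 5 and 9.59%. The Pbx and Hox pair site was found in 4 and in 7.68% of all promoters, the homeodomain core in 2, both of Hoxd11, and in 4.84%, and the site of Hox proteins of high number in 1 and 4.20%. A match describes the letters only, and no binding was measured.

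Every member was accounted for. A probe set of their own was not matched for 6 members, which were not analysed here, and for Hoxb8 and Hoxd4 among them the probe sets carry several symbols. Hoxa7 and Hoxb13 lay below the filter level, the 40th percentile of an array, on all 30 arrays. Hoxb13 stayed between 4.03 and 4.18 and Hoxa7 between 4.30 and 5.18, and neither was tested. The filter level was 5.18 to 5.54 on the log2 scale. By cluster, 8 of 11 HoxA, 8 of 10 HoxB, 7 of 9 HoxC and 8 of 9 HoxD genes were tested. A total of 11 members were above the filter level on all 30 arrays, namely Hoxa3, Hoxa5, Hoxa9, Hoxa10, Hoxa11, Hoxc6, Hoxd8, Hoxd9, Hoxd10, Hoxd11 and Hoxd13. At the other end, 8 tested members were above it on no cultured array of the intermediate population, including Hoxb5, Hoxb9, Hoxc4, Hoxc5 and Hoxc8. Such a member passed the filter through the groups where it was high, and its fold is understated by the dim side.

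The labels were checked with genes of known position. Pitx1 and Tbx4, which specify the hindlimb, were higher and Tbx5, which specifies the forelimb, lower on each of the 8 cultured arrays labelled early than on each of the 16 others. The lowest Tbx4 level was 9.93 on early cultured arrays, and the highest on the other cultured arrays was 6.55. The mesenchyme markers Prrx1, Prrx2, Twist1, Msx1 and Hand2 were above the filter level on 30 of 30 arrays. At day 0 the labels did not hold in the same way. The day 0 array labelled early replicate 2 had a Tbx4 level of 6.79 and a Tbx5 level of 8.50, and the day 0 array labelled intermediate replicate 2 had 10.46 and 4.68.

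Hox genes split the 6 day 0 arrays along the same lines. Hoxc10 stood at 9.05 and 4.65 on the 2 day 0 arrays labelled early, at 5.59 and 9.13 on those labelled intermediate, and at 5.28 and 6.16 on those labelled late. The array labelled intermediate replicate 2 was therefore as high as the array labelled early replicate 1, and the array labelled early replicate 2 was the lowest of the 6. Hoxb3 stood at 7.04 and 8.50 on the arrays labelled early, 5.83 and 6.92 on those labelled intermediate, and 8.59 and 6.36 on those labelled late. Hoxd13 stood at 9.84 and 9.37, 11.16 and 9.67, and 9.51 and 10.92 in the same order. The arrays labelled intermediate replicate 1 and late replicate 2 were the highest for Hoxd13 and the lowest for Hoxb3. Populations are therefore compared in the 24 cultured arrays only. In the main comparisons day 0 enters only as the mean of all 3 populations, which is the same whichever population a day 0 array carries. The error of that mean is not.

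**Figure D1:**
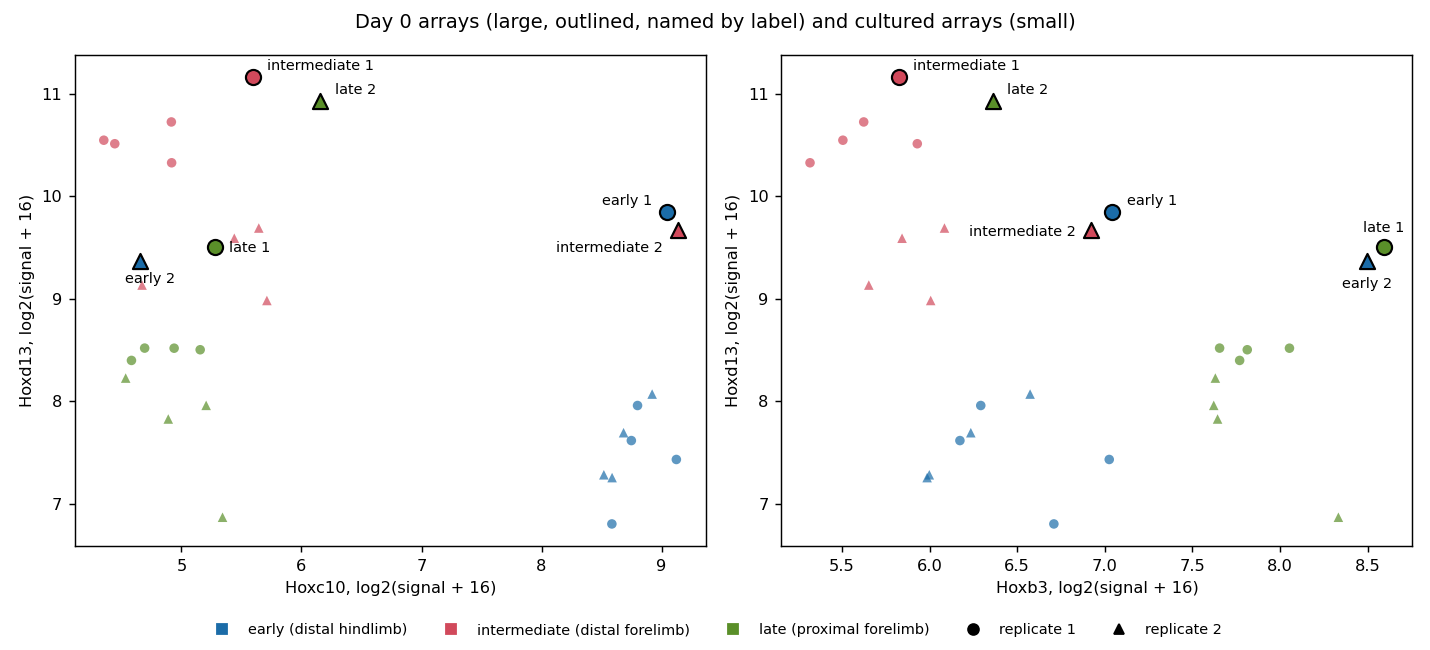
Levels of Hoxd13 against Hoxc10 (left) and Hoxb3 (right) on each of the 30 arrays, as log2(signal + 16), coloured by labelled population, with circles for replicate 1 and triangles for replicate 2. The large day 0 points labelled early 2 and late 1 lie together, as do intermediate 2 and early 1, and late 2 and intermediate 1, while the small points of the cultured arrays group by label.

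The first comparison asked how distal hindlimb cells (early) differ from distal forelimb cells (intermediate) in culture, over control and BMP4 medium and both days, 8 arrays against 8. HoxC genes and Hoxb9 were higher in hindlimb cells, and HoxD genes from Hoxd8 to Hoxd13 were lower, while 7 of the 8 tested HoxA genes were not called. Of the 31 members tested, 15 were called (48.4%), 9 higher and 6 lower, while 3.63% of all genes were called, 1.68% higher and 1.95% lower. Among the 12 members above the filter level on all 24 cultured arrays, 7 were called, while 3.88% of the genes above it on all these arrays were. The arrays of the 2 populations did not overlap for 8 members, against 0.337% of all genes. In bulk samples, fewer cells of a type and less RNA per cell cannot be told apart.

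Hoxc10, a gene described as expressed in hindlimb and posterior trunk, had the largest difference of the 31. Its levels on the 8 early arrays ran from 8.52 to 9.12 with a median of 8.72, and on the 8 intermediate arrays from 4.35 to 5.71 with a median of 4.92. The arrays did not overlap, the difference was 3.73 ± 0.18, or 13.3-fold, and the adjusted p from limma was 5.15e-10. The proximal forelimb arrays ran from 4.54 to 5.34, so the gene was high only in the hindlimb population of the 3.

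Hoxc9 ran from 6.98 to 8.07 (median 7.39) in early and from 4.92 to 6.39 (median 5.34) in intermediate cells, with no overlap and a difference of 2.01 ± 0.26. Hoxc8 ran from 6.13 to 6.74 (median 6.52) in early and from 4.59 to 5.30 (median 4.86) in intermediate cells, again with no overlap, and differed by 1.61 ± 0.14. Both belong to the middle of the cluster, whose genes are known to mark the trunk between the limbs. In intermediate cells Hoxc8 was above the filter level on 0 of 8 arrays, Hoxc9 on 4 and Hoxc10 on 3, so the sizes of these 3 differences are not ranked.

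The HoxC genes of low number were also higher in hindlimb cells. Hoxc4 and Hoxc5 were above the filter level on 0 of 8 intermediate arrays, so their differences are not ranked against those above. Hoxc4 ran from 4.59 to 5.84 (median 5.17) in early and from 4.20 to 4.39 (median 4.25) in intermediate cells, where it lay below the filter level throughout, and differed by 0.91 ± 0.13. Hoxc5 ran from 5.23 to 6.36 (median 5.68) and from 4.68 to 5.14 (median 4.84), a difference of 0.85 ± 0.15. Neither overlapped between the populations. Hoxc6 ran from 7.23 to 7.99 (median 7.62) and from 6.69 to 7.25 (median 6.91), which overlap at their edges, a difference of 0.67 ± 0.10. One of its 2 other probe sets was called in the same direction at 0.45 and the other stood at 0.25, not called. Hoxc13, the last gene of the cluster and known from hair and nail, differed by 0.52 and was not called, which leaves 6 of 7 tested HoxC genes called.

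Hoxb9 was the HoxB gene with the largest difference, with levels from 4.84 to 6.96 (median 5.92) in early and from 4.42 to 5.34 (median 4.56) in intermediate cells, 1.34 ± 0.18 apart. Hoxb3 ran from 5.99 to 7.03 (median 6.26) and from 5.32 to 6.09 (median 5.75), with slight overlap and a difference of 0.63 ± 0.14, but its second probe set gave 0.03 and was not called. Hoxa10 was the HoxA gene called, higher by 0.43 ± 0.11 with an adjusted p of 0.0275 from limma, and its second probe set gave 0.06. The Hoxa10 call was lost without any 1 of 10 arrays (intermediate day 1 control 1 and 2, day 1 BMP4 1, day 2 control 2 and day 2 BMP4 1, and early day 1 control 1 and 2, day 1 BMP4 1, day 2 control 1 and day 2 BMP4 2), with differences of 0.35 to 0.44.

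The HoxD genes of high number, which pattern forearm and digits, ran the other way. Hoxd13, the digit gene of the cluster, ran from 6.80 to 8.07 (median 7.52) in early and from 8.98 to 10.73 (median 10.01) in intermediate cells. The arrays did not overlap, and the level was lower in hindlimb cells (-2.42 ± 0.27, 5.37-fold, adjusted p 3.42e-05 from limma). A second probe set gave -2.39, and the difference was -3.08 among arrays labelled replicate 1 and -1.77 among those labelled replicate 2. Hoxd11, known from the forearm, ran from 7.04 to 7.91 (median 7.53) and from 8.44 to 9.46 (median 8.98), with no overlap and a difference of -1.45 ± 0.14. Hoxd10 ran from 8.69 to 9.63 (median 9.24) and from 9.57 to 10.56 (median 10.10), a difference of -0.94 ± 0.09 with ranges that overlap from 9.57 to 9.63. Hoxd9 was lower by less, from 7.99 to 9.27 (median 8.55) against 8.34 to 9.93 (median 9.0), a difference of -0.48 ± 0.10. Hoxd8 and Hoxd12 were also called, at -1.19 ± 0.10 and -1.35 ± 0.26. Hoxd1 and Hoxd3, at the other end of the cluster, differed by 0.10 and -0.04 and were not called. Over the 8 tested HoxD genes Spearman's rho between difference and paralogue number was -0.90, as a description. It ranks dim genes with bright ones: Hoxd1 was above the filter level on no cultured array, and Hoxd12 on 2 of 8 early arrays.

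Read by paralogue number, members of 1 group went different ways. In group 9, Hoxb9 and Hoxc9 were higher in hindlimb cells, Hoxd9 was lower and Hoxa9 differed by -0.05. In group 10, Hoxc10 and Hoxa10 were higher and Hoxd10 was lower. In group 8, Hoxc8 was higher and Hoxd8 lower. In group 13, Hoxd13 was lower, while Hoxa13 (-0.51, adjusted p 0.0977 from limma) and Hoxc13 were not called. The 9 members that were higher lie in clusters A, B and C, and the 6 that were lower lie in cluster D.

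In control cultures alone 7 of 31 members were called, namely Hoxc8, Hoxc9, Hoxc10, Hoxd8, Hoxd10, Hoxd11 and Hoxd13, while the share of all genes called went from 3.63% to 1.10%.

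**Figure D2:**
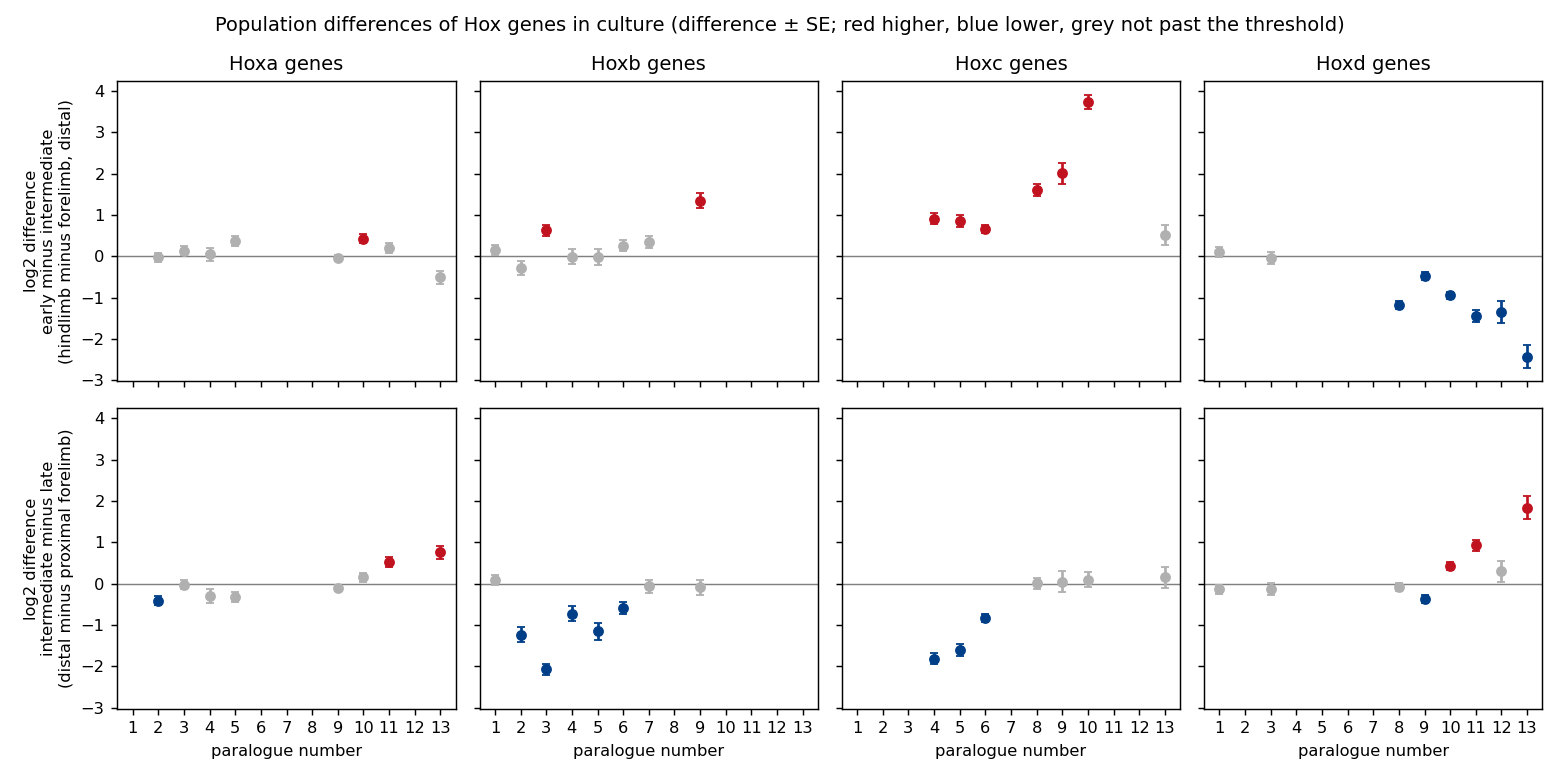
Differences of log2(signal + 16) between populations in the 24 cultured arrays, with bars of 1 standard error, for the 31 tested Hox genes by cluster (columns) and paralogue number (horizontal axis); red points were called higher, blue lower and grey not called. In the upper row (early minus intermediate) Hoxc10 stands highest at 3.73 and Hoxd13 lowest at -2.42; in the lower row (intermediate minus late) Hoxb3 stands lowest at -2.07 and Hoxd13 highest at 1.84.

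The next comparison set distal forelimb (intermediate) against proximal forelimb (late), again 8 arrays against 8. Distal cells had higher levels of 5 HoxA and HoxD genes of number 10 to 13, and proximal cells had higher levels of 8 HoxB and HoxC genes of number 2 to 6, and of Hoxa2 and Hoxd9. Of the 31 members, 15 were called (48.4%), 5 higher and 10 lower in distal cells, while 7.82% of all genes were called, 2.82% higher and 5.00% lower. Among members above the filter level on all 24 cultured arrays, 7 of 12 were called, against 7.51% of such genes. The arrays did not overlap for 5 members, against 1.57% of all genes.

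Hoxd13 ran from 8.98 to 10.73 in distal and from 6.87 to 8.52 (median 8.31) in proximal cells. It did not overlap, and the difference was 1.84 ± 0.27, or 3.57-fold, with an adjusted p of 0.000254 from limma. Its second probe set gave 2.14. Within both forelimb populations the arrays labelled replicate 1 were above those labelled replicate 2 in 4 of 4 conditions, with means of 10.53 and 9.35 in distal and 8.48 and 7.72 in proximal cells. Among intermediate arrays, Hoxa13 (6.70 and 6.02), Hoxd12 (6.81 and 5.79) and Hoxd11 (9.10 and 8.79) were also higher on replicate 1 in 4 of 4 conditions, and Hoxc10 (4.66 and 5.37) and Hoxb3 (5.59 and 5.90) were lower in 4 of 4. Among late arrays, Hoxd11, Hoxd12, Hoxa10 and Hoxa11 were higher on replicate 1 in 4 of 4. Within 1 replicate number, 4 arrays against 4 and with no test, chosen after seeing the data, Hoxd13 was 2.04 higher in distal cells on replicate 1 and 1.63 on replicate 2, and Hoxd11 0.88 and 0.97. Hoxd11 ran from 7.36 to 8.46 (median 8.11) in proximal cells and was 0.92 ± 0.14 higher distally, with ranges that overlap at their edges. Hoxd10 ran from 9.16 to 10.23 (median 9.59) in proximal cells and was 0.43 ± 0.09 higher distally, with overlapping arrays. Hoxa13 and Hoxa11, the HoxA genes of the hand and forearm segments, were higher distally by 0.76 ± 0.16 and 0.53 ± 0.12. Within replicate 1 and replicate 2 the difference was 1.02 and 0.49 for Hoxa13 and 0.20 and 0.86 for Hoxa11. Hoxd12 stood at 0.30 and Hoxa10 at 0.15, and neither was called.

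Hoxb3, a gene known from the hindbrain and anterior trunk, had the largest difference in the proximal direction. It ran from 5.32 to 6.09 (median 5.75) in distal and from 7.62 to 8.33 (median 7.71) in proximal cells. There was no overlap, the difference was -2.07 ± 0.14, or 4.20-fold, and the adjusted p from limma was 9.49e-08. A second probe set gave -1.49. Hoxc4 ran from 5.31 to 6.70 (median 6.30) in proximal cells, above every distal array, a difference of -1.82 ± 0.13. Hoxc5 ran from 5.61 to 7.16 (median 6.62) in proximal cells, also with no overlap, a difference of -1.62 ± 0.15. Hoxc6 ran from 7.40 to 7.98 (median 7.79), with no overlap, a difference of -0.82 ± 0.10.

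Other HoxB genes followed with more spread. Hoxb5 was below the filter level on all 8 distal arrays, at 4.16 to 4.45, and stood at 6.21 and 4.55, 5.53 and 6.37, 4.63 and 4.37, and 5.54 and 6.5 on the proximal arrays, in the order day 1 control, day 1 BMP4, day 2 control and day 2 BMP4. Of the 4 proximal control arrays 3 were at 4.63 or below, and the 4 proximal BMP4 arrays were at 5.53 or above. The difference was -1.16 ± 0.20. Hoxb6 ran from 4.86 to 5.56 (median 5.31) in distal and from 5.50 to 6.32 (median 5.75) in proximal cells, -0.58 ± 0.14 apart. Hoxb2 and Hoxb4 were lower distally too, at -1.23 ± 0.17 and -0.72 ± 0.17. A second Hoxb4 probe set gave -0.57 and was not called. Hoxb1, Hoxb7 and Hoxb9 were not called, with differences of 0.08, -0.06 and -0.09.

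Hoxa2 was lower distally by 0.41 (difference -0.41 ± 0.12, adjusted p 0.0437 from limma), from 4.89 to 5.45 (median 5.21) in distal and 5.24 to 6.09 (median 5.62) in proximal cells. Hoxd9 differed by -0.37 ± 0.10 (adjusted p 0.0344 from limma), with proximal levels of 8.68 to 10.35 (median 9.41). Both groups of arrays overlapped widely. The Hoxa2 call was lost without any 1 of 12 of the 16 forelimb arrays, with differences of -0.44 to -0.36. It was kept without intermediate day 1 control 1, intermediate day 2 control 1, late day 1 BMP4 2 or late day 2 BMP4 1. The Hoxd9 call was lost, with differences of -0.38 to -0.29, without any 1 of intermediate day 1 control 2, day 1 BMP4 1, day 2 control 2, day 2 BMP4 1 and day 2 BMP4 2, and late day 1 control 1, day 1 BMP4 2, day 2 control 1, day 2 control 2 and day 2 BMP4 2. Of the 31 members 9 were called in control cultures alone, where 2.84% of all genes were, 9 in BMP4 cultures alone (3.61%) and 8 at day 2 alone (4.14%). Hoxb2, Hoxb3, Hoxc4, Hoxc5, Hoxc6, Hoxd11 and Hoxd13 were called in each of these 3. Hoxa2, Hoxa11, Hoxb4 and Hoxb6 were called in none of them, nor at day 1 alone.

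Spearman's rho between difference and paralogue number, as a description over genes of shared arrays, was 0.72 over all 31 members, 0.83 over the 8 HoxA, 0.79 over the 8 HoxD and 0.26 over the 8 HoxB genes. These values also rank dim genes. Among forelimb cultured arrays, Hoxd1 was above the filter level on none and Hoxa4 on 1. Among the 7 HoxC genes, Hoxc4, Hoxc5 and Hoxc6 were lower distally, while Hoxc8, Hoxc9, Hoxc10 and Hoxc13 differed by 0.00 to 0.15 and were not called, with Hoxc8 and Hoxc13 below the filter level on all forelimb cultured arrays, so the order among these 4 is not read. Both comparisons use the same intermediate arrays, so they are not independent, and the values of the members called in both are best read side by side. Hoxb3, Hoxc4, Hoxc5 and Hoxc6 were lower in distal forelimb than in either other population, and Hoxd10, Hoxd11 and Hoxd13 were higher there than in either. Against hindlimb, the second Hoxb3 probe set gave 0.03, and Hoxb3 was not called in control cultures, day 1 or day 2 alone. Hoxc4, Hoxc5 and Hoxc6 were not called against hindlimb in control cultures alone either. Hoxd9 was the exception among the 8 members called in both, lower in hindlimb than in distal forelimb and lower there than in proximal forelimb. Against hindlimb, Hoxd9 was not called in control cultures, BMP4 cultures, day 1 or day 2 alone. Against proximal forelimb, it was not called in control cultures or at day 1 alone, and single arrays ended that call, as given above.

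Markers of other cells moved with the forelimb comparison. Skeletal muscle genes were lower in distal cells for 6 of 7, and their summed signal was 444 to 1406 on distal and 2890 to 6301 on proximal arrays. Leukocyte genes were higher for 5 of 5, with sums of 348 to 933 and 250 to 344. Their part in the Hox differences was not tested. Nerve, cartilage, ectoderm and endothelium gave 1 lower of 3 (Isl1, -0.92), 0 of 5, 0 of 6 and 1 higher of 5 (Tek). Between early and intermediate cells, 0 of 7 muscle, 0 of 5 leukocyte, 0 of 5 endothelial and 0 of 3 red blood cell genes were called. Of the nerve list 1 of 3 was called, Isl1, higher by 2.52 ± 0.15 and also known from the hindlimb field, with summed signals of 287 to 730 in early and 126 to 367 in intermediate cells. Of the cartilage list 1 of 5 was called, Acan at -0.82 ± 0.19, with sums of 2867 to 10836 and 7055 to 12131. Of the ectoderm list 1 of 6 was called, Krt8 at 0.47 ± 0.12, with sums of 323 to 845 and 205 to 549. Their part in the Hox differences was not tested either.

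**Figure D3:**
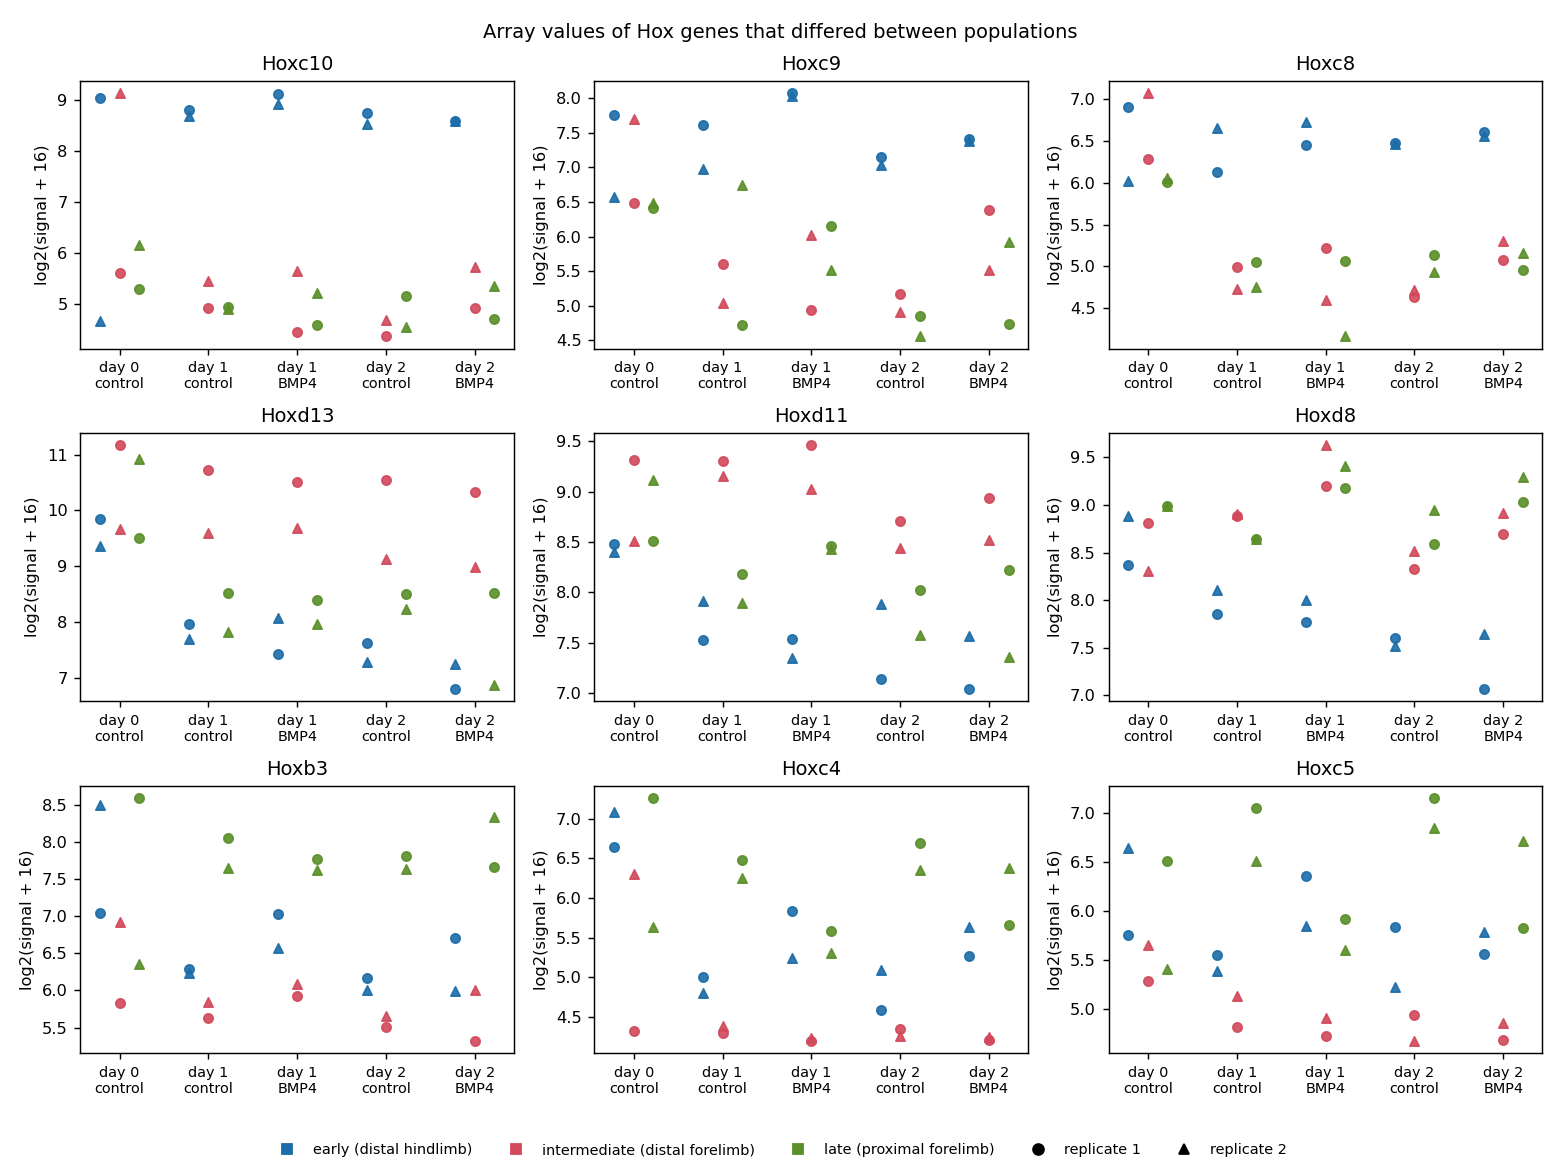
Levels of 9 Hox genes, log2(signal + 16), on each of the 30 arrays by day and medium, coloured by labelled population, with circles for replicate 1 and triangles for replicate 2. From day 1 on, the early arrays lie apart for Hoxc10, Hoxc9, Hoxc8 and Hoxd8, the intermediate arrays are highest for Hoxd13 and, with a slight overlap, for Hoxd11, and the late arrays are highest for Hoxb3.

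The remaining pair, distal hindlimb against proximal forelimb, was compared after the values had been seen. Of the 31 members 18 were called, 6 higher and 12 lower in hindlimb cells, while 9.04% of all genes were called, 3.72% higher and 5.33% lower. Hoxc10 (3.83 ± 0.18), Hoxc9 (2.06 ± 0.26) and Hoxc8 (1.61 ± 0.14) were higher by about what they were against distal forelimb. Hoxb9 was higher by 1.26 ± 0.18, Hoxa11 by 0.72 ± 0.12 and Hoxa10 by 0.58 ± 0.11. Hoxb2, Hoxb3 and Hoxb5 were lower, at -1.51 ± 0.17, -1.44 ± 0.14 and -1.17 ± 0.20, and Hoxd8, Hoxd9 and Hoxd12 at -1.27 ± 0.10, -0.85 ± 0.10 and -1.05 ± 0.26. Hoxd13 was not called here (-0.59 ± 0.27, adjusted p 0.186 from limma). Hoxc4 and Hoxc5 were lower over both media, at -0.90 ± 0.13 and -0.76 ± 0.15, and in BMP4 cultures alone they gave -0.24 and -0.13, not called. Of 31 members 10 were called in control cultures alone, where 1.64% of all genes were, and 9 at day 1 alone (2.23%). The calls of Hoxa2, Hoxb4, Hoxb5, Hoxb9, Hoxd9, Hoxd10, Hoxd11 and Hoxd12 were lost in control cultures alone. Hoxb5 lay below the filter level on every early cultured array, so its fold is understated. Single arrays ended 3 calls. Those of Hoxa2 and Hoxd11 were each lost without any 1 of 9 arrays, with differences of -0.44 to -0.37 and -0.53 to -0.42. For Hoxa2 they were late day 1 control 2, day 1 BMP4 1, day 2 control 1 and 2 and day 2 BMP4 2, and early day 1 control 2, day 1 BMP4 2, day 2 control 2 and day 2 BMP4 2. For Hoxd11 they were late day 1 control 1, day 1 BMP4 1 and 2, day 2 control 1 and day 2 BMP4 1, and early day 1 control 1, day 1 BMP4 2, day 2 control 1 and day 2 BMP4 1. Hoxd12 was lost without early day 1 control 2, early day 2 control 2 or late day 2 BMP4 1, at -0.97 to -0.91.

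BMP4, which drives cartilage formation or cell death in limb mesenchyme depending on stage, was compared with control medium within each population. In the early population, 4 of 31 members were higher with BMP4 (12.9%) and 0 lower, averaged over both days with 4 arrays in each arm, while 11.4% of all genes were called, 5.66% higher and 5.72% lower. The share of members was thus near that of all genes. Hoxb9 stood at 5.87, 5.67, 4.84 and 5.84 in control and at 6.53, 6.31, 5.96 and 6.96 with BMP4 (day 1 replicates 1 and 2, then day 2), a difference of 0.89 ± 0.26. Hoxc4 stood at 5.01, 4.81, 4.59 and 5.09 in control and 5.84, 5.24, 5.27 and 5.63 with BMP4, a difference of 0.62 ± 0.19. Hoxc6 stood at 7.23, 7.52, 7.43 and 7.41 and then at 7.79, 7.99, 7.72 and 7.85, a difference of 0.45 ± 0.13. Of the other Hoxc6 probe sets 1 was called at 0.49 and 1 gave -0.02. All 4 BMP4 arrays were above all 4 control arrays for these genes.

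Hoxc13 stood at 4.38, 4.58, 4.76 and 4.56 in control and at 5.21, 7.00, 4.85 and 6.73 with BMP4. Both BMP4 arrays labelled replicate 2 were high, and both labelled replicate 1 were slightly above the controls. The fitted difference was 1.38 ± 0.35 (adjusted p 0.0172 from limma), the largest of the 4. The gene was above the filter level on 2 of the 24 cultured arrays. With Hoxb5, not called, the arrays of the arms did not overlap for 5 members, against 13.5% of all genes.

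All 4 calls depended on single arrays. Without early day 1 control replicate 1, or without early day 2 BMP4 replicate 2, 0 of 31 members were called. Without early day 1 BMP4 replicate 1 or 2, or day 2 control replicate 1, 1 was, and without day 1 or day 2 control replicate 2, 2 were. At day 1 alone and at day 2 alone, 0 were called. In this population BMP4 also moved leukocyte genes up (5 of 5, sums of 330 to 390 in control and 683 to 928 with BMP4) and cartilage genes down (4 of 5, sums of 6354 to 10836 and 2867 to 7955), and their part in the Hox values was not tested.

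In the intermediate population, limma called 0 of 31 members and 0.575% of all genes, 0.370% higher and 0.205% lower. An unadjusted p under 0.05 was reached by 3 of 31 members and by 1401 of all 15136 genes. The 3 were Hoxb2, Hoxd8 and Hoxa10, at 0.60, 0.44 and 0.35. The arms did not overlap for 4 members, against 3.51% of all genes. In the late population 1 of 31 was called, Hoxd9, against 0.403% of all genes, 0.317% higher and 0.0859% lower. The arms did not overlap for 2 members, against 5.18% of all genes. Hoxd9 stood at 9.64, 9.0, 8.68 and 8.81 in control and at 10.08, 10.35, 9.26 and 9.56 with BMP4, higher than control on the same day on each array, a difference of 0.78 ± 0.15 with an adjusted p of 0.0241 from limma. The call was lost without any 1 of late day 1 control 2, day 1 BMP4 2, day 2 control 1, day 2 control 2 and day 2 BMP4 2, with differences of 0.61 to 0.81. Without late day 1 control 1, 2 members were called, and at day 1 alone and at day 2 alone 0 were. The other 9 members with an unadjusted p under 0.05 there included Hoxb5, at 1.04 ± 0.29, and Hoxc5, at -0.88 ± 0.21, neither called. With Hoxd9 that made 10 of 31 members, while 1425 of all 15136 genes had such a p.

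The response to BMP4 itself was compared between populations. Between early and intermediate cells 0 of 31 members differed by limma, with 6 at an unadjusted p under 0.05, while 0.562% of all genes were called, 0.291% higher and 0.271% lower. Between intermediate and late cells 0 members and 0 genes were called, with 5 members at an unadjusted p under 0.05. Of all 15136 genes, 1456 had such a p in the first of these comparisons and 680 in the second. Between early and late cells, a comparison added after the values had been seen, 1 of 31 was called against 0.832% of all genes, 0.357% higher and 0.476% lower. It was Hoxc4, with a response difference of 1.33 ± 0.27 and an adjusted p of 0.0260 from limma. In late cells Hoxc4 stood at 6.48, 6.25, 6.70 and 6.35 in control and at 5.59, 5.31, 5.66 and 6.38 with BMP4, a difference of -0.71 ± 0.19 that was not called. Its neighbours gave response differences of 1.26 ± 0.29 for Hoxc5 (adjusted p 0.0524 from limma) and 0.78 ± 0.19 for Hoxc6 (0.0701). The Hoxc4 call was lost without any 1 of early day 1 control 1 and 2, day 2 control 1 and day 2 BMP4 2, and late day 1 control 1, day 1 BMP4 2, day 2 control 1 and day 2 BMP4 1, with differences of 1.15 to 1.38. Without early day 1 or day 2 BMP4 1, intermediate day 2 control 1 or 2, or late day 2 BMP4 2, 2 members were called.

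**Figure D4:**
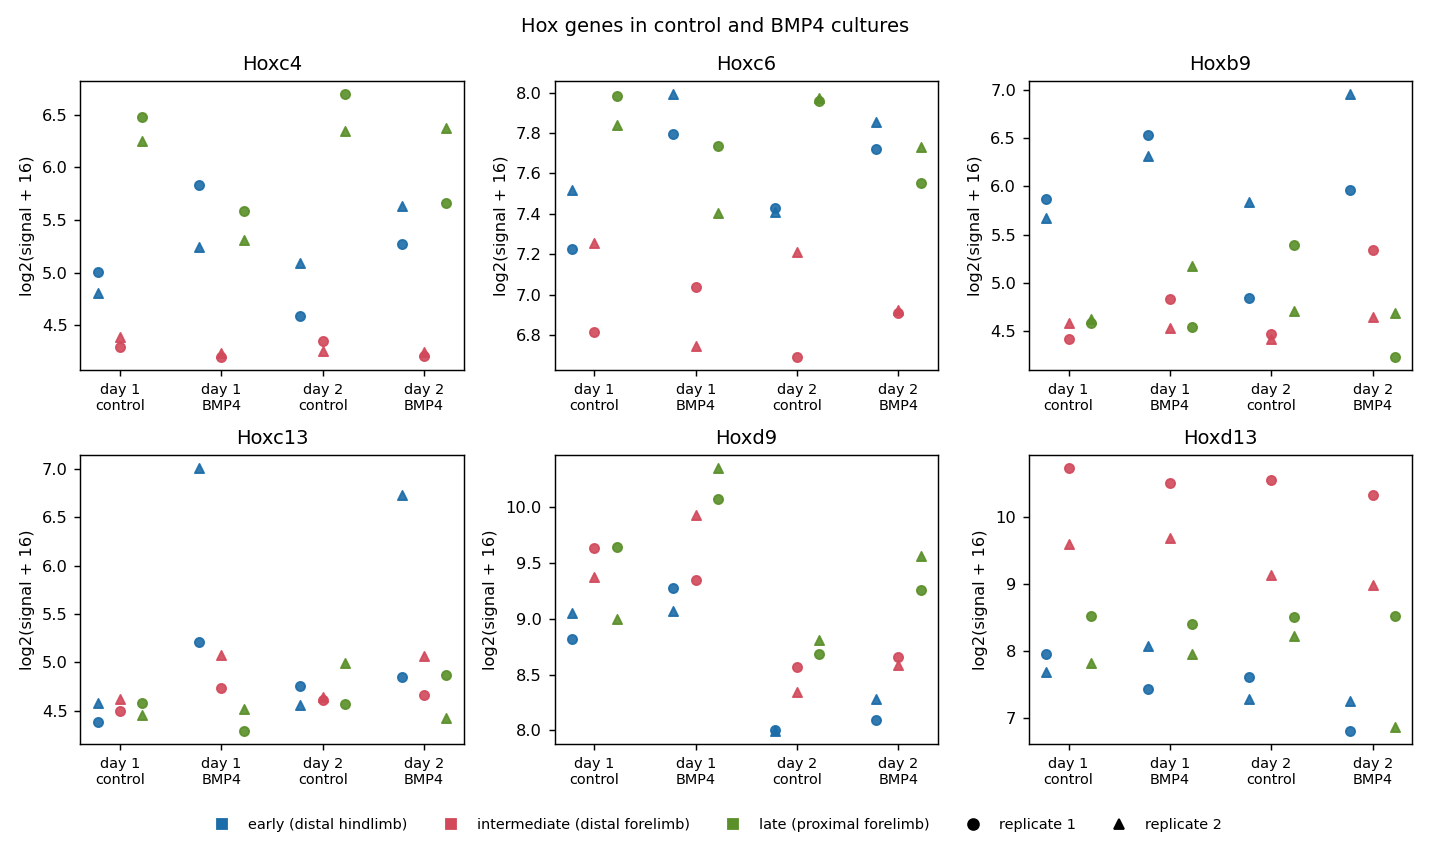
Levels of 6 Hox genes, log2(signal + 16), on each of the 24 cultured arrays by day and medium, coloured by labelled population, with circles for replicate 1 and triangles for replicate 2. Early arrays of Hoxc4, Hoxc6 and Hoxb9 are higher with BMP4, Hoxc13 is high on 2 early BMP4 arrays only, and late arrays of Hoxd9 are higher with BMP4.

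Between day 0 and day 1 of control culture, 11 of 31 members were lower (35.5%) and 0 higher, averaged over the 3 populations with 6 arrays against 6, while 39.5% of all genes were called, 22.5% higher and 17.0% lower. All members except Hoxb7 had a difference below 0, and the median was -0.53 over members and -0.00 over all genes. With each array centred on its median over tested genes, that median over all genes became -0.17, and the share of called genes that were higher went from 56.9% to 31.1%. With this centring 24 of 31 members were lower and 0 higher, while 7315 of all 15136 genes were called. Among the members above the filter level on all 30 arrays, 3 of 11 were called, against 45.9% of such genes. Hoxa5 counts there as not called, at -0.25, but its second probe set gave -0.94 ± 0.12 (adjusted p 1.7e-06 from limma). The second probe sets of Hoxa9 and Hoxd13, which were called, gave -0.85 and -1.37.

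Hoxa9, known in limb positioning and in blood progenitors, was at 11 to 11.22 on the 6 day 0 arrays and at 9.84 to 10.13 on the 6 day 1 arrays, with no overlap and a difference of -1.17 ± 0.08 (adjusted p 2.56e-10 from limma). Hoxd9 was at 9.68 to 10.00 (median 9.93) and at 8.82 to 9.64 (median 9.21), with no overlap and a difference of -0.63 ± 0.11. Hoxa2 was at 5.51 to 5.93 (median 5.75) and at 4.68 to 5.25 (median 5.18), also with no overlap, a difference of -0.69 ± 0.13. Hoxa4 and Hoxb1 did not overlap either, at -0.96 ± 0.17 and -0.42 ± 0.14. With Hoxc13, not called, all day 1 arrays lay below all day 0 arrays for 6 members, against 22.1% of all genes that did not overlap in either direction.

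For members that also differed between populations, the spread was wider. Hoxd13 ran from 9.37 to 11.16 (median 9.76) at day 0 and from 7.69 to 10.73 (median 8.24) at day 1, a difference of -1.36 ± 0.35. Hoxc8 ran from 6.01 to 7.07 (median 6.17) and from 4.73 to 6.66 (median 5.02), a difference of -1.01 ± 0.18. Hoxc8 at day 0 was thus high on every array, the arrays labelled forelimb included, and at day 1 only early arrays stayed above 6. Hoxc4 ran from 4.32 to 7.26 (median 6.47) and from 4.30 to 6.48 (median 4.91), a difference of -1.0 ± 0.27. Hoxb6 ran from 5.64 to 6.89 (median 6.73) and from 4.91 to 5.75 (median 5.53), a difference of -0.98 ± 0.20.

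Hoxb5 (-0.76 ± 0.30) and Hoxd1 (-0.55 ± 0.17) were the other members called. Hoxd1 was above the filter level on 2 arrays, both of day 0, and Hoxa4 on 5 day 0 arrays and 1 late cultured array. Both were thus tested through the day 0 arrays, the side that was higher, so their calls are not independent of the filter. The Hoxb5 call, with an adjusted p of 0.0484 from limma, was lost without any 1 of 22 of the 30 arrays. It was kept without day 0 replicate 1 of early or intermediate, late day 0 replicate 2, late day 1 control 1, or any late BMP4 array. Its difference was -0.44 without late day 0 replicate 1 and -0.48 without late day 1 control replicate 2. The Hoxd1 call was lost without intermediate day 0 replicate 2 (-0.38) or late day 0 replicate 2 (-0.44). The Hoxb1 call was lost without early day 0 replicate 2 (-0.36), late day 1 control replicate 2 (-0.37) or early day 1 control replicate 1 (-0.33). Without the 3 day 0 arrays labelled replicate 2, the Hoxb1 and Hoxd1 calls were lost, at -0.36 and -0.26. In late cells alone, where the day 0 arrays are taken as labelled, 4 of 31 members were called. The share of all genes in that fit is not given here, so the count is not read further.

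Between day 1 and day 2 of control culture, 2 of 31 members were lower (6.45%) and 0 higher, while 8.50% of all genes were called, 5.64% higher and 2.85% lower. The arrays did not overlap for 1 member, Hoxd9, against 4.81% of all genes. Hoxd9 fell on, from 8.82 to 9.64 at day 1 to 7.99 to 8.81 (median 8.46) at day 2, with a difference of -0.85 ± 0.12 (adjusted p 0.000182 from limma). Hoxd10 went from 9.17 to 10.24 (median 9.61) to 8.73 to 9.88 (median 9.31), a difference of -0.45 ± 0.10. Hoxd9 was thus lower at each step from day 0 to day 2, whereas Hoxa9 differed by -0.09 between days 1 and 2 and was not called.

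**Figure D5:**
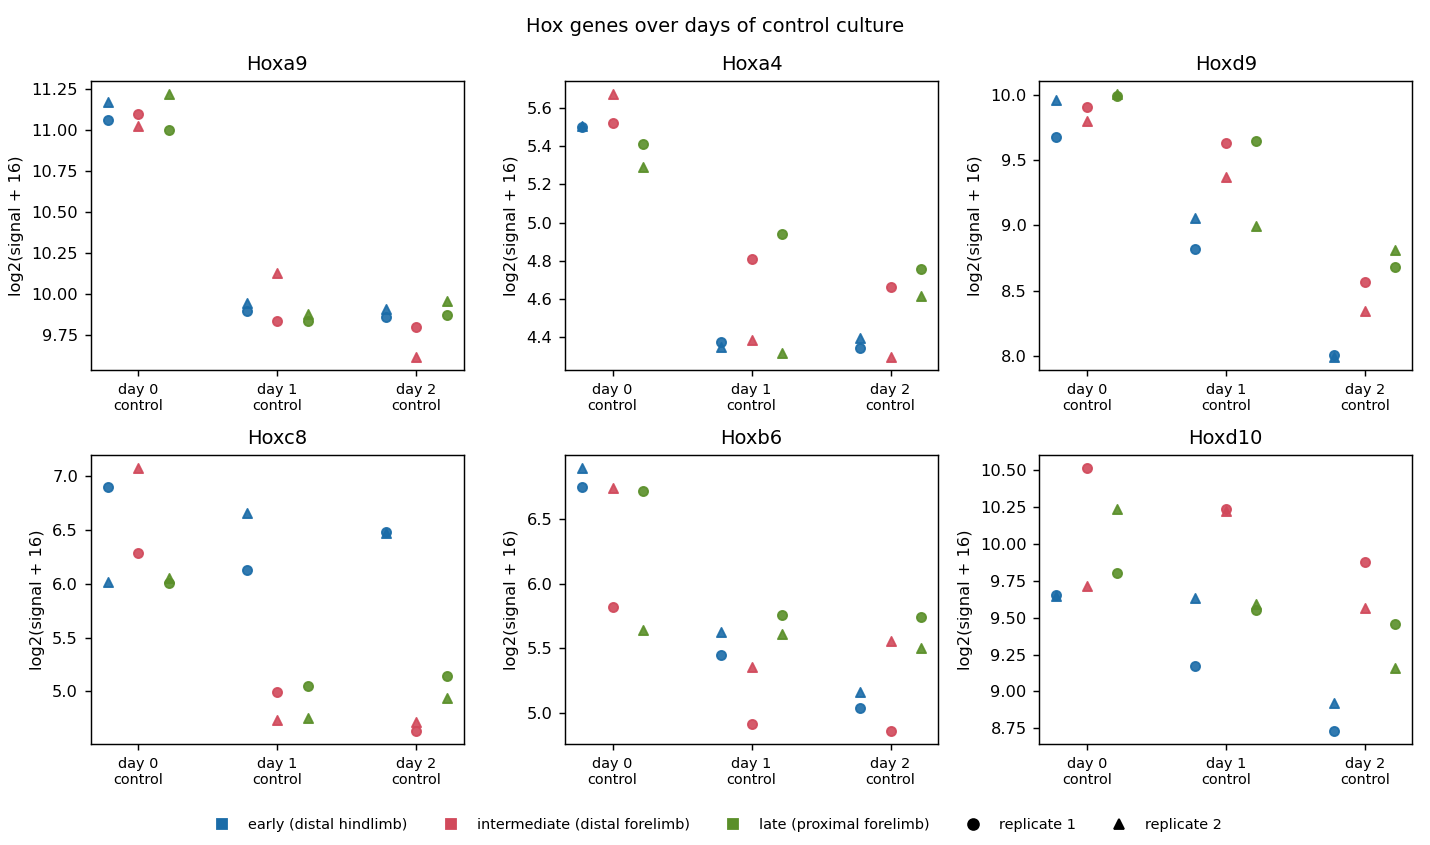
Levels of 6 Hox genes, log2(signal + 16), on each control array by day, coloured by labelled population, with circles for replicate 1 and triangles for replicate 2. Hoxa9 is at 11 or above on every day 0 array and at 10.13 or below later, and Hoxd9 is lower at each day.

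Markers of other cells moved strongly over the first day. Red blood cell genes fell for 3 of 3, with a median difference of -5.84 and summed signal of 2565 to 10654 at day 0 and 27.0 to 57.3 at day 1. Endothelial genes fell for 4 of 5, and ectodermal genes for 2 of 6. Cartilage genes rose for 5 of 5, and of 7 muscle genes 5 rose and 1 fell. Of the mesenchyme markers Twist1 (-1.24), Prrx2 (-1.21) and Msx1 (-2.12) fell and Prrx1 (0.39) rose. The part of any of these in the Hox values was not tested.

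Regulators and partners of Hox genes were described from lists. Among the TALE cofactors, 3 of 8 tested were higher in early than in intermediate cells, Meis2 by 2.39 ± 0.18, Meis1 by 2.10 ± 0.23 and Meis3 by 0.98 ± 0.15, and 0 were lower. Meis1 and Meis2 were lower in intermediate than in late cells, at -1.56 ± 0.23 and -1.93 ± 0.18, and the other 6 were not called. Among intermediate arrays Meis1 was lower on replicate 1 (mean 6.35) than on replicate 2 (7.46), and within these numbers early minus intermediate was 2.65 and 1.55, and intermediate minus late -1.86 and -1.26. Meis1 and Meis2 thus had their lowest levels in distal forelimb, as Hoxc4, Hoxc5 and Hoxc6 did, and Hoxb3 by its brightest probe set. In early cells Meis3 and Meis2 were higher with BMP4, by 1.26 ± 0.22 and 1.14 ± 0.26.

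Polycomb genes, which encode repressors of Hox clusters, gave 1 call of 20 between early and intermediate cells and 0 of 20 between intermediate and late cells. Between day 0 and day 1, 9 of 20 were lower and 3 higher, with Pcgf6 at -0.85 ± 0.08, Phc3 at 0.51 ± 0.10, Pcgf3 at 0.39 ± 0.07 and Cbx6 at 0.98 ± 0.13. The list of Trithorax and MLL genes, which encode activators of the clusters, also holds Ctcf, which is not of that class. This list gave 8 lower and 1 higher of 10 at that step, the lowest being Kdm6a at -0.96 ± 0.10. These counts stand beside the 39.5% of all genes called there. Of the ParaHox and cluster-linked homeobox genes, Evx1 was lower at day 1 (-1.0 ± 0.32), 1 of 4 tested, and 0 were called between populations.

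Genes that have been described downstream of limb Hox proteins gave 3 higher and 6 lower of 18 between early and intermediate cells, and 2 higher and 4 lower of 18 between intermediate and late cells. Of all genes, 3.63% and 7.82% were called in these comparisons. The list holds Tbx4 and Tbx5, which served above to check the labels, so their differences between hindlimb and forelimb were known beforehand. Epha3, an ephrin receptor described as a target of Hox proteins in the limb, was lower in early than in intermediate cells (-2.46 ± 0.27) and 1.03 ± 0.27 higher in intermediate than in late cells, so it was highest where Hoxd13 was. Sall1, a zinc finger factor of the digits, went the same way, at -1.42 ± 0.21 and 1.81 ± 0.21. Epha7 went the other way, at 0.92 ± 0.09 and -0.88 ± 0.09, as did Shox2, a factor of the proximal limb, at 0.81 ± 0.12 and -1.14 ± 0.12. The lists were chosen with earlier results of these data known, and their counts are descriptions.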

How the data were processed

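RNA of 30 samples was measured on 1 oligonucleotide array each. The deposited values are array intensity on a linear scale, made with MAS5 per the submitters' processing notes (version and settings not given in the sources used here), and their 2% trimmed mean was 150 on every array. Gene names came from the platform annotation, in which 34945 of 45101 probe sets had 1 symbol and 932 several; 34741 of the first matched RefSeq by gene number and 0 were renamed. The brightest probe set per gene was taken as log2(intensity + 16) and kept if above the array's 40th percentile on at least 2 arrays. limma 3.58.1 in R 4.3.3 (lmFit and eBayes with a trend) was fitted to 15136 genes with 1 mean per group, on the 24 cultured arrays (12 residual degrees of freedom) or, for day 1 against day 0, on all 30 (15), with Benjamini-Hochberg adjustment over all genes at 0.05. The code was tested on simulated data. Every value column was matched to a sample by its name (0 unmatched).

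All 39 members may be named. Values of every array were given for at most 16 members, taken by the number of comparisons in which they were called and then by the largest difference, and up to 4 genes of each other list by the smallest adjusted p, with Pitx1, Tbx4, Tbx5, Meis1 and Meis2 always named. The members and lists were chosen with earlier results of these data known. Alternatives changed the pseudocount, scaling, filter, probe set rule, arrays in the fit, medium, day and replicate block, and left out each array in turn. Promoters are from RefSeq, build GRCm38.p6.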

Additional observations from a re-analysis of the deposited data

Results flagged for a closer look

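One result differed between populations by a test of the difference itself. The response of Hoxc4 to BMP4 was 1.33 higher on the log2 scale in the early than in the late population (adjusted p 0.0260 from limma), in a comparison chosen after seeing the data. Mean Hoxc4 levels went from 4.87 in control to 5.50 with BMP4 in early cells and from 6.44 to 5.73 in late cells. The change in late cells was not called by itself. In early cells Hoxc4 was above the filter level on 2 of 8 cultured arrays. The call of the response difference was lost in 8 of 24 fits without 1 array, and at day 1 alone and at day 2 alone.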

How the results depend on the processing

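Of the 48 calls of the 9 planned comparisons, 0 changed direction under any alternative, 37 were kept whichever array was left out, and 15 were kept under every alternative tried. Counts below are of 31 members called. Early minus intermediate (15) gave 7 in control cultures only and 14 to 16 with 1 array left out. Intermediate minus late (15) gave 9 in control cultures only, 9 in BMP4 cultures only, 8 at day 2 only and 13 to 15 with 1 array left out. BMP4 in early cells (4) gave 2 with quantile normalization, 2 with all 30 arrays in the fit, 0 at day 1 only, 0 at day 2 only and 0 to 4 with 1 array left out. BMP4 in late cells (1) gave 2 with a pseudocount of 64, 0 at day 1 only, 0 at day 2 only and 0 to 2 with 1 array left out. Day 2 minus day 1 (2) gave 4 in BMP4 cultures, 1 in early, 1 in intermediate and 0 in late cells alone, and 2 to 2 with 1 array left out. Day 1 minus day 0 (11) gave 24 with median centring, where 7315 of all 15136 genes were called. It also gave 7 with the filter at the 60th percentile and 10 to 14 with 1 array left out. It gave 4 in late cells alone, with the day 0 arrays taken as labelled. The comparisons of early with late cells were chosen after seeing the data. Their difference (18) gave 10 in control cultures only, 9 at day 1 only and 16 to 19 with 1 array left out. Their BMP4 response (1) gave 0 with a pseudocount of 1, 3 with one of 64, 2 with median centring, 0 with all 30 arrays, 0 at day 1 only, 0 at day 2 only and 0 to 2 with 1 array left out. Median centring moved the share of called genes that were higher from 36.1% to 49.9% for intermediate minus late, from 66.4% to 49.6% for day 2 minus day 1, from 56.9% to 31.1% for day 1 minus day 0, from 51.8% to 40.2% for the response of early minus intermediate cells and from 41.1% to 55.7% for early minus late. Dim members have only an upper bound in the populations where they lie below the filter level.

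Arrays of different groups share a replicate number, and the labels do not say that it pairs them. Deviations of same-numbered arrays had a median correlation of 0.220 within a population in culture (15 of 18 pairs of groups over 0.1), 0.157 between populations in culture (40 of 48) and 0.0230 where 1 group was of day 0 (5 of 39). With the replicate block as a fixed term, BMP4 in late cells gave 3, BMP4 in intermediate cells 1, the response of early minus intermediate cells 1 and that of early minus late cells 4. With a random replicate block, BMP4 in late cells gave 3 and the response of early minus late cells 3, and the calls of Hoxa10 and Hoxd9 between early and intermediate of Hoxa2, Hoxb4 and Hoxd9 between intermediate and late, and of Hoxa2, Hoxb4 and Hoxd11 between early and late cells were lost. The Hoxd13 calls were kept in both block fits.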
